A study of Mus musculus with 15 samples.

Results

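Genes of fat storage, fat breakdown and fatty acid uptake were examined for binding of heat shock factor 1 (HSF1) in mouse brown adipose tissue (BAT). The 10 members, Plin1, Plin2, Plin3, Plin5, Cidec, Lipe, Pnpla2, Lpl, Cd36 and Pck1, were taken by name from a table of 21887 protein-coding genes (GRCm38). A peak was assigned to a member when it overlapped the gene or the 5 kb on either side. Of 54878 HSF1 peaks on the standard chromosomes in 10 libraries, 150 met this rule, and they fell into 41 separate sites. The 10 ChIP-seq libraries came from wild type BAT at room temperature, after 40 min of cold stress (a first and a second pair of libraries, called here the first and second cold pair) and after 4 h of cold stress, and from TXNIP KO BAT after 40 min of cold, with 2 libraries in each group. TXNIP is an arrestin that binds thioredoxin and restrains glucose uptake. Age, sex, strain and the kind of TXNIP knockout allele (whole body or restricted to a cell type) are not named in the labels. Nothing says that the 2 libraries of a group came from separate animals.

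Fat in a brown adipocyte is held in many small droplets, each coated by perilipins and related proteins that control access of lipases to the stored triglyceride. In the cold, noradrenaline activates protein kinase A, the coat opens, adipose triglyceride lipase (Pnpla2) and hormone-sensitive lipase (Lipe) release fatty acids, and mitochondria burn them. Lipoprotein lipase (Lpl) and the fatty acid transporter Cd36 refill the cell from the blood. HSF1 is the factor that induces chaperone genes under protein stress, and it binds heat shock elements, which are alternating TTC and GAA units.

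Peak lists were of very unequal length, from 123 and 351 peaks after 4 h, 919 and 1269 at room temperature and then 2287 and 1670 in the first cold pair, to 12644 and 14583 in the second cold pair and 10399 and 10633 in the knockout. Both wild type pairs carry the same condition label, so the gap between them shows how far lists of 1 condition can differ. Neither wild type pair is tied to the knockout by the labels. The second was taken as its control and the first as an alternative. Read depth is unknown, since the lists hold no counts. The fold enrichment of a peak is the authors' ratio of signal at the summit to local background, and the rank is the place of the peak in its own list by the authors' −log10 p, with 1 the strongest. Expression was not measured here, so the labelled tissue could not be checked against marker levels.

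Promoter windows of 4 members whose peaks reached them are shown here. For Plin2 and Lipe, whose promoters were bound at room temperature, capitals mark the bases that lay inside the peaks of both room temperature libraries. For Plin1 and Cidec, the members with a summit inside the window in all 4 libraries of the second cold pair and the knockout, capitals mark a TTCNNGAA match. Each RefSeq window runs 5′ to 3′ from 250 bases before to 50 bases after a gene start (GRCm38) and lies on the minus strand, at chr4:86670010-86670309 for Plin2, chr7:25395938-25396237 for Lipe, chr7:79732727-79733026 for Plin1 and chr6:113435711-113436010 for Cidec.
Plin2: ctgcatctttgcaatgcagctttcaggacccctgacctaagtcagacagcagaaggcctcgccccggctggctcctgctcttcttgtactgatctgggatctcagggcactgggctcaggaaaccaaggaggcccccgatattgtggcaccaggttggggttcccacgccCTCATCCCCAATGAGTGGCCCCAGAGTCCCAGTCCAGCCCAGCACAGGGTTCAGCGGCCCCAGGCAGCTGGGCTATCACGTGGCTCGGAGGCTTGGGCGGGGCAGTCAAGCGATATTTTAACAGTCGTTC
Lipe: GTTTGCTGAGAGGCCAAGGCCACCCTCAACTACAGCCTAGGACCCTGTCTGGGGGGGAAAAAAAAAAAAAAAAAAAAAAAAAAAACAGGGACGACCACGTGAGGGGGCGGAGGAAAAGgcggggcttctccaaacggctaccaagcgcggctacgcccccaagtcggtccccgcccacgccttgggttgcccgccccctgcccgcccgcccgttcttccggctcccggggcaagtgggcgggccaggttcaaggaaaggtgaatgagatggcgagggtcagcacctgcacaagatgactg
Plin1: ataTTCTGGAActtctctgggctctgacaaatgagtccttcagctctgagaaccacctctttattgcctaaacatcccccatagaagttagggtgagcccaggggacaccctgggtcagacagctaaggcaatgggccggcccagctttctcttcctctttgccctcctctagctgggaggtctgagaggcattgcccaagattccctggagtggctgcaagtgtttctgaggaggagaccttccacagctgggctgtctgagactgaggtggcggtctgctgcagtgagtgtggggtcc
Cidec: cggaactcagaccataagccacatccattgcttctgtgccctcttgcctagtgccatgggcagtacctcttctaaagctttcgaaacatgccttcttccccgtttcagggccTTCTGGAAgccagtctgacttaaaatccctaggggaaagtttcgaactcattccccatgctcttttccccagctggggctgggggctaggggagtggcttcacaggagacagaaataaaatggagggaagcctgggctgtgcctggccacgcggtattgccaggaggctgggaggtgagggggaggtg

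A search for TTCNNGAA, added after the data were seen, matched 2 of 12 windows listed for 9 members (Plin5, Cidec and Lipe have more than 1 listed start), where 8.52% of all 32851 promoter windows held a match. The 2 windows were those of Plin1 and Cidec, and both matches read TTCTGGAA. In Plin1, which encodes the main perilipin of adipocytes, the match lay at chr7:79733016-79733023, at -243 bp from the start (negative distances lie upstream), and the 4 summits were 5 to 55 bp from its middle. In Cidec, which encodes a protein that fuses droplets, it lay at chr6:113435891-113435898, at -134 bp, with summits 9 to 45 bp away. No member window held GAANNTTC (7.86% of all windows) or a run of 3 alternating units with 2 bases between them (0.603% of all windows), also with 1 mismatch allowed (7.22%). The Plin1 window ends at 79733026, too close to the match for a further unit on that side to be seen. Most of the 12 windows held no summit in any library, so the search does not cover the sequence at those sites. The strongest sites of Plin3, Plin2 and Lipe had summits outside these windows, and sequence around them was not analysed here.

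HSF1 was called at 3 of the 10 genes at room temperature and at all 10 in the longest lists. A gene was counted as bound in a group when peaks of both libraries overlapped each other in its window. Plin2, Plin3 and Lipe were bound at room temperature, where 2.91% of all protein-coding genes were. The same 3 genes were bound in the first cold pair, against 4.93% of all genes. Only Plin3 was bound after 4 h, against 0.466%. All 10 were bound in the second cold pair and in the knockout, against 25.8% and 20.4% of all genes, which include genes silent in BAT. The members were chosen with earlier results of these data known, so these shares do not measure enrichment of an independent list. The members had a median span of 11646 bp against 17169 bp for all protein-coding genes. Plin2, Lipe, Lpl and Cd36, 4 of the 10, were longer than that, and the part of gene length in the counts was not tested.

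**Figure D1:**
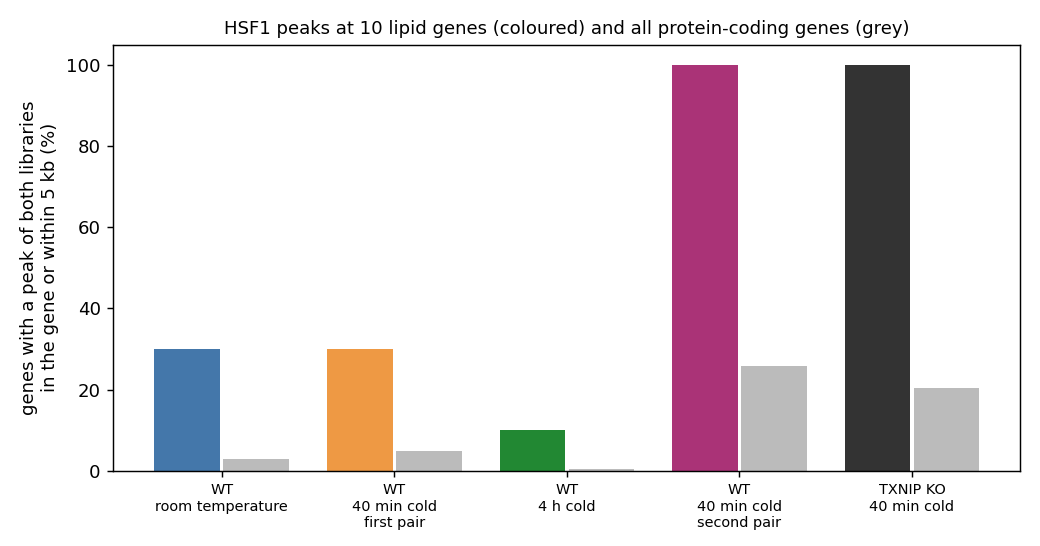
Percent of genes with a peak of both libraries in the gene or within 5 kb, for the 10 lipid genes (coloured bars) and for all 21887 protein-coding genes (grey bars) in each of the 5 groups. The coloured bars stand for 3 of 10 genes at room temperature and in the first cold pair, 1 of 10 after 4 h and 10 of 10 in the second cold pair and the knockout. Each is above its grey bar, for genes chosen with earlier results of these data known.

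Among the droplet coat genes, Plin3 had the strongest and most constant site. Plin3 encodes a perilipin made in most tissues, which moves from the cytosol to young droplets. Its leading site had a peak in 10 of 10 libraries, as 0.429% of genes had somewhere in their windows. The fold was 18.8 and 17.6 before cold, 35.3 and 23.9 in the first cold pair, 10.3 and 22.5 after 4 h, 137 and 133 in the second cold pair, and 104 and 113 in the knockout. It stood at rank 90 and 110 before cold, 85 and 123 in the first cold pair, 30 and 19 after 4 h, 80 and 85 in the second cold pair, and 88 and 72 in the knockout. The rank thus stayed within 19 to 123 while list length ran from 123 to 14583 peaks. The 4 h folds lay on both sides of the room temperature values.

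That Plin3 site was not at the Plin3 promoter. All 10 summits fell between chr17:56279583 and chr17:56279627, a range of 44 bp, inside the gene. In second pair replicate 2, where the site ranked best relative to list length, the summit lay 10905 bp downstream of the Plin3 start, 644 bp from the far end of Plin3 and at -2839 bp from the start of Ticam1, which encodes the Toll-like receptor adaptor TRIF. In the second cold pair and the knockout the peak was wide, and it covered the Ticam1 start at 56276767 as well. It ran from 56276605 to 56280456 in second pair replicate 1 and from 56276659 to 56280555 in knockout replicate 1. The data do not tell which of these genes, if either, the site acts on. By relative rank over 10 libraries, the genes most like Plin3 were Ticam1, which shares the site (distance 0.000), Cilk1 (0.049) and Lgals7 (0.073).

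Plin3 also had a promoter site, with its summit at -761 bp from the start (56291272) in second pair replicate 1. It was called in 8 of 10 libraries. Room temperature folds were 5.24 and 5.86, followed by 8.22 and 6.40 in the first cold pair, 28.7 and 26.1 in the second cold pair and 19.8 and 21.8 in the knockout. No 4 h library called it. Within each library that called both, this site was weaker than the one at the far end of the gene.

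Plin2 encodes the perilipin that rises with droplet load in many cells. Its site lay just inside the gene, 225 bp downstream of the start in knockout replicate 1, and the 8 summits spanned 92 bp. The fold was 7.15 and 9.37 at room temperature (ranks 461 and 358), 15.2 and 10.9 in the first cold pair (385 and 520), 46.6 and 39.8 in the second cold pair (422 and 572), and 50.0 and 41.3 in the knockout (301 and 412). Neither 4 h library called it. The second pair and the knockout overlapped in fold. Both knockout ranks were ahead of both second pair ranks, but the knockout lists were shorter. No share of all regions was computed for such places in the list. As a share of list length the ranks overlapped (3.34% and 3.92% in the second pair, 2.89% and 3.87% in the knockout).

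Plin1 and Cidec, both typical of mature adipocytes, were called in the 4 libraries of the second cold pair and the knockout and in no other. The Plin1 promoter peak had folds of 12.6 and 14.4 in the second cold pair and 18.6 and 11.0 in the knockout, so the knockout libraries lay on either side of wild type. A weaker Plin1 site further upstream (fold 3.83 to 6.69) lay nearer to the end of Pex11a, a peroxisome gene, than to Plin1. The Cidec promoter peak had folds of 16.1 and 18.9 in the second cold pair and 27.0 and 25.1 in the knockout. Its ranks were 1645 and 1571 in wild type and 910 and 934 in the knockout, with no overlap between the groups. These are places in lists of unequal length, and no share of all regions was computed for them or for folds. As a share of list length Cidec was also higher in both knockout libraries. That held for 4.91% of 7131 regions called in all libraries of both groups. Ranked among those regions only, Cidec was higher too, as 22.2% were.

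Plin5 encodes the perilipin that tethers droplets to mitochondria in oxidative tissue. Its sites were weak, with folds of 3.11 to 7.70, and they were also limited to the second cold pair and the knockout. The strongest, with folds of 5.57 and 5.49 in wild type and 6.64 and 7.70 in the knockout, lay 425 bp downstream of the start of the neighbouring gene Lrg1 in knockout replicate 2. It is counted here because the Plin5 window reaches it, and no peak overlapped either listed Plin5 promoter window in any library.

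**Figure D2:**
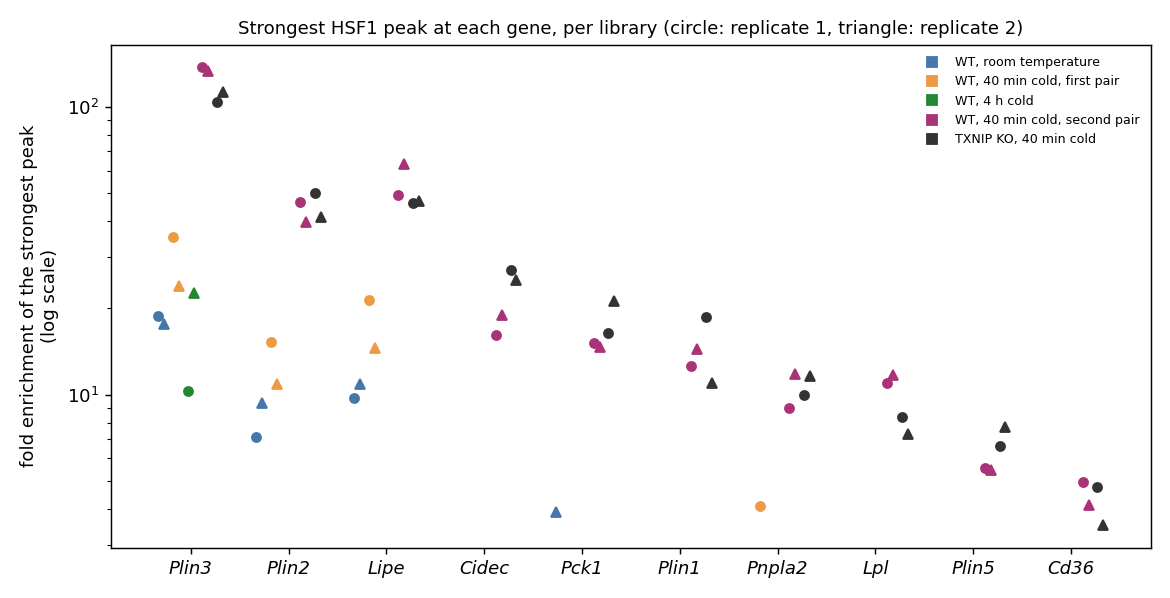
Fold enrichment (log scale) of the strongest peak in each gene window, with 1 point per library, circles for replicate 1 and triangles for replicate 2, coloured by group. Plin3, Plin2 and Lipe have points at room temperature and in the first cold pair, Plin3 has the only points after 4 h, and Pck1 and Pnpla2 have 1 early point each (3.91 and 4.11).

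Among the lipases, Lipe was bound in its 5′ region in 4 of 5 groups. Lipe encodes hormone-sensitive lipase, which cleaves diacylglycerol after protein kinase A phosphorylates it. The leading site lay inside the gene, at -521 bp from the nearest listed start in second pair replicate 2, and its 8 summits fell within 28 bp. The fold was 9.77 and 10.9 at room temperature (ranks 268 and 271), 21.3 and 14.5 in the first cold pair (211 and 336), 49.4 and 63.5 in the second cold pair (477 and 364), and 46.3 and 47.1 in the knockout (399 and 382). It was absent from both 4 h lists.

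A further Lipe site lay beyond the far end of the gene, at summit 25378518 in knockout replicate 1, 1009 bp outside it. It had a peak in room temperature replicate 2 only (5.28), then in both libraries of the first cold pair (7.15 and 5.92), the second cold pair (23.1 and 24.5) and the knockout (30.1 and 21.2). Lipe had 7 sites in all, the most of any member together with Lpl, and 3 further ones were called in both libraries of the knockout, with folds of 3.53 to 7.11 over all libraries that called them. One of these lay at -339 bp from a second listed start inside the gene.

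Pnpla2, the gene of the lipase that takes the first fatty acid from a triglyceride, had 2 sites called in both libraries of a group. The one near its far end (207 bp inside the gene) had folds of 8.96 and 11.8 in the second cold pair and 9.98 and 11.6 in the knockout. First pair replicate 1 called it too (4.11, rank 2074 of 2287), and replicate 2 did not. The one 1125 bp downstream of the start had folds of 7.17 and 7.89 in wild type and 6.02 and 8.10 in the knockout. Both sites overlapped between the genotypes.

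Among the uptake genes, Lpl had 7 sites with folds of 2.74 to 11.7, and no Cd36 peak had a fold above 4.98. Lpl, which encodes the enzyme that frees fatty acids from circulating lipoproteins, had 6 sites called in both libraries of the second cold pair and 3 in the knockout. The strongest peaks had folds of 11.0 and 8.58 in wild type and 8.39 and 7.31 in the knockout (summit 68908883, 1951 bp outside the gene), and 7.57 and 11.7 against 5.39 and 6.52 (summit 68901355, inside it). At both sites the knockout folds lay below both wild type folds. No share of all regions was computed for folds. By rank as a share of list length, 47.0% of 7131 regions called in all libraries of both groups lay lower in both knockout libraries. Ranked among those regions only, 19.5% did. Strand and start of Lpl are not in the promoter table used here.

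Cd36 spans 107270 bp, the longest member, and had 3 sites with folds of 3.43 to 4.98. The site called in all 4 long lists lay inside the gene, with folds of 4.98 and 4.12 in wild type and 4.78 and 3.53 in the knockout. A peak 18 bp from the listed start was called in wild type (3.98 and 3.43) and in neither knockout library. Its ranks of 9825 and 12480 were in the weak part of the wild type lists.

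Pck1, which encodes the PEPCK enzyme that makes glycerol backbone for re-esterification, had a site at its start and one beyond its far end. The start site had folds of 11.3 and 12.0 in the second cold pair and 14.3 and 11.4 in the knockout, with the summit 181 bp downstream of the start in knockout replicate 1. A weak peak in the same region was in room temperature replicate 2 (3.91, rank 1194 of 1269, summit 173152021) and not in replicate 1. The site 544 bp beyond the gene had folds of 15.1 and 14.6 in wild type and 16.4 and 21.1 in the knockout, above the start site in each of the 4 libraries.

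Of 41 sites, 27 were called in both libraries of at least 1 group, 11 in a single library. By summit, 15 of the 27 lay inside the member. Of 21 with a listed start, 8 lay within 1 kb of it. For 3 of the 27, the end of another gene was nearer than any end of the member.

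**Figure D3:**
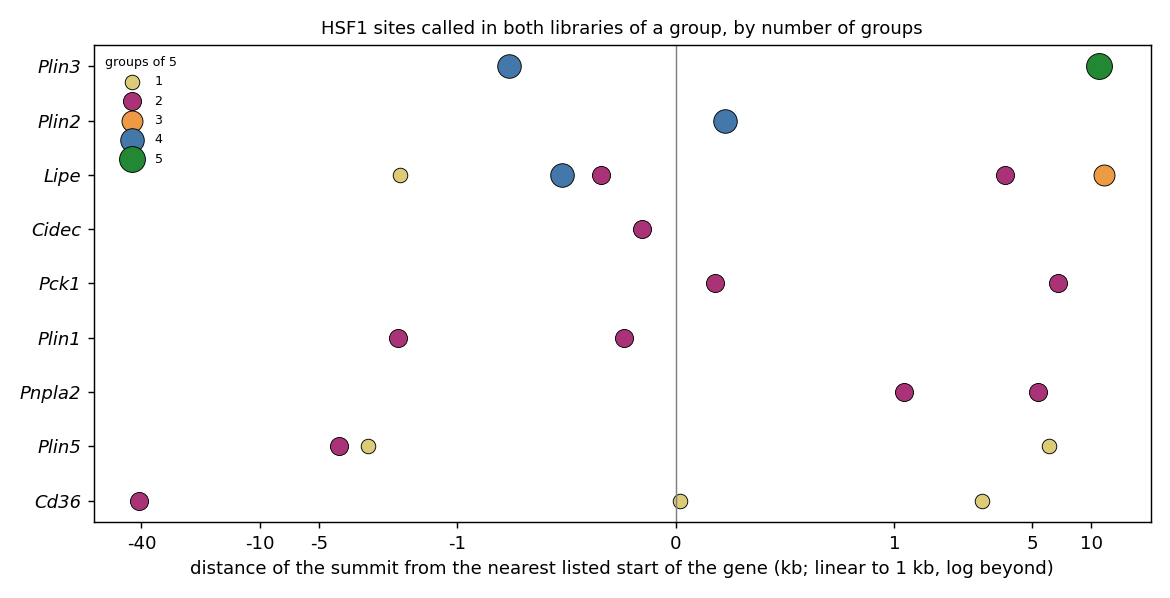
Position of each site called in both libraries of at least 1 group, as the distance in kb of its summit from the nearest listed start of the gene (negative upstream, linear to 1 kb and log beyond), for the 9 members with a listed start. Colour and size give the number of groups: the 5-group site of Plin3 lies farthest downstream in its row, and the 4-group sites of Plin3, Plin2 and Lipe lie within 1 kb of a start.

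The first comparison asks what differed between room temperature and the first cold pair. The second cold pair, with the same 40 min label, was not compared with room temperature. All 10 members were bound in it, in lists of 12644 and 14583 peaks. No member region was gained or lost from room temperature to the first cold pair, where 26.8% of all 1527 regions called in both libraries of either group were gained and 0.327% lost. The 4 member regions called in all 4 libraries (both Plin3 sites, Plin2 and Lipe) had higher folds in both 40 min libraries than in both room temperature ones, as 79.8% of the 756 regions of that kind did. By rank as a share of list length, Lipe and the leading Plin3 site were higher without overlap, against 61.1% of those regions, and the other 2 overlapped. With 4 regions, neither share stands apart from that of all shared regions. The region called in both 40 min libraries and in 1 room temperature library was the Lipe site beyond the far end.

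The second comparison asks what was still bound after 4 h. Of 4 member regions bound at room temperature, 3 were lost after 4 h (Plin2, the 5′ region of Lipe and the Plin3 promoter) and 1 was kept, while 64.3% of all 812 regions were lost. None was gained, against 0.369%. The Plin2, Lipe and Plin3 promoter sites stood at ranks 268 to 775 at room temperature, and 123 and 351 peaks were called after 4 h. Without room temperature replicate 1, 6 regions were lost.

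The third comparison, of TXNIP KO with the second wild type pair at 40 min, gave a share of regions called in both genotypes near that of all regions. Of 27 member regions, 19 were called in all 4 libraries, against 63.9% of all 11158 regions. In the knockout 1 was gained and 1 was lost, against 1.78% gained and 12.0% lost among all regions. The lost region was the one at the Cd36 start. The gained one was in the Plin5 window, with folds of 3.11 and 3.95 and summits 450 bp apart in the 2 libraries. Both counts depend on weak peaks, and each was 0 when only peaks with −log10 q of at least 5 were kept. Leaving out 1 library moved them: 3 regions were gained without second pair replicate 2 and 4 without either knockout library, while 6 were lost without second pair replicate 1, 2 without replicate 2 and 3 without either knockout library. With the first wild type pair as control, 17 regions were gained and 0 lost. The share over all regions was not computed for this control. Its lists held 2287 and 1670 peaks, against 10399 and 10633 in the knockout. Between the 2 wild type pairs themselves, 18 of 24 member regions were in the second alone and 0 in the first alone, and 7989 of 10368 of all regions were in the second alone.

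In rank as a share of list length, 2 of the 19 shared regions were higher in both knockout libraries than in both wild type ones (Cidec and the one at Lrg1 in the Plin5 window), against 4.91% of 7131 shared regions. Another 4 were lower (both Plin3 sites and 2 Lpl sites), against 47.0%. The higher count was 5 without second pair replicate 2, 4 without knockout replicate 1 and 6 without knockout replicate 2. The lower count was 9 without second pair replicate 1, 8 without knockout replicate 1 and 9 without knockout replicate 2. This share is the rank divided by list length, and the lists held 12644 and 14583 peaks in wild type and 10399 and 10633 in the knockout. The part of list length in these counts was not tested. Ranked among the 7131 shared regions only, 7 member regions were higher in the knockout (both Pck1 sites, Plin2, Cidec, 2 Lipe sites and the Plin5 window) and 1 lower (Lpl, summit 68901355), where 22.2% and 19.5% of all were. Cidec and the Plin5 window were higher and that Lpl site lower under both ways of ranking. The leading Plin3 site was at ranks 80 and 85 in wild type and 88 and 72 in the knockout. For 2 libraries against 2, the smallest two-sided p of an exact permutation is 0.333, so no single site could pass and none was tested.

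**Figure D4:**
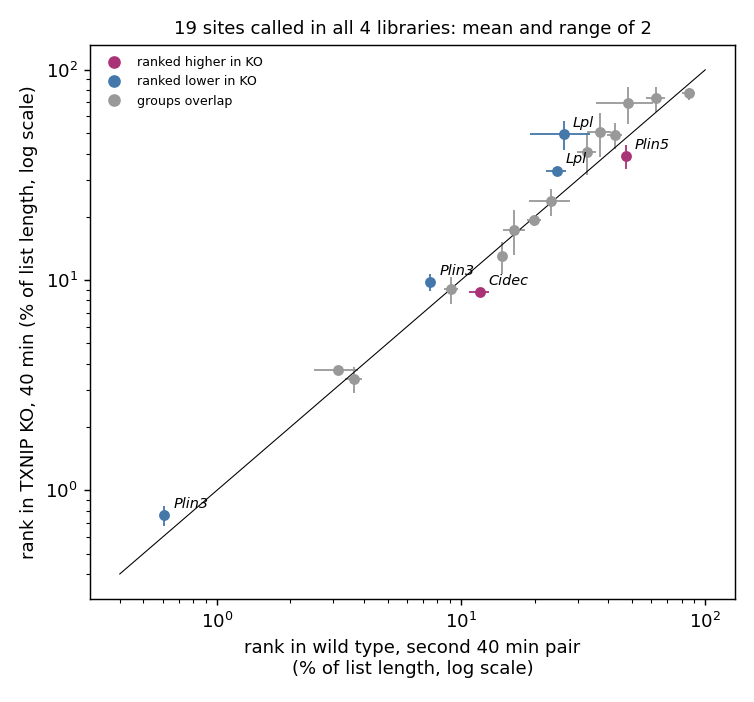
Rank as percent of list length (log scales, smaller is stronger) of the 19 member sites called in all 4 libraries, in the second wild type pair (x axis) and in TXNIP KO (y axis), as the mean of 2 libraries with their range as bars. Points below the line rank higher in the knockout: Cidec and the Plin5 window lie below it without overlap, and 2 Plin3 and 2 Lpl sites above it.

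With each library reduced to its 919 strongest peaks, the leading sites of Plin3, Plin2 and Lipe stayed in the long lists. The share of all room temperature regions that did so was not computed. The 4 h lists, of 123 and 351 peaks, were shorter than this and stayed whole. The leading Plin3 site was present in 10 libraries, and the Plin2 and Lipe 5′ sites in 8 each, all but the 4 h ones. The Plin3 promoter was in 3 (both room temperature libraries and first pair replicate 1), and so in no long list. The far Lipe site was in 2 and Cidec in knockout replicate 1 alone. No site of Plin1, Plin5, Pnpla2, Lpl, Cd36 or Pck1 was among them.

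Other genes of the same pathway were counted in the same way. Of 42 further lipid genes, 4 were bound in both libraries at room temperature, 6 in the first cold pair, 1 after 4 h, 24 in the second cold pair and 19 in the knockout. By role, lipolysis and its control had 3, 4, 1, 5 and 5 of 9 bound in that order, lipid droplet genes 1, 1, 0, 3 and 4 of 8, uptake and activation genes 0, 0, 0, 7 and 4 of 11, glycerol and triglyceride synthesis genes 0, 0, 0, 7 and 4 of 8, and fatty acid synthesis genes 0, 1, 0, 2 and 2 of 6. The shares of all genes bound, given above, apply here too. Of 5 brown adipocyte markers (Ucp1, Cidea, Dio2, Ppargc1a and Adrb3), 1, 1, 0, 3 and 3 were bound in the same order. Cidea and Adrb3 are also among the 42 genes above. Ppargc1a was the marker bound at room temperature and in the first cold pair. Dio2 had no peak in any library, and Adrb3 had one in 1 library.

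Mgll, the monoacylglycerol lipase that completes fat breakdown after Pnpla2 and Lipe, was the only one of these bound in all 5 groups. Its leading peak had a fold of 8.82 in room temperature replicate 1 (the strongest of replicate 2, 8.01, lay elsewhere in the gene), 15.2 and 15.9 in the first cold pair, 6.66 and 6.78 after 4 h, 57.2 and 64.4 in the second cold pair and 74.9 and 61.8 in the knockout, and it lay 36637 bp downstream of the start in second pair replicate 1. Aqp7, the channel through which glycerol leaves the adipocyte, had a promoter peak in 8 libraries. Its folds were 8.90 and 8.81 before cold, 14.0 and 13.6 in the first cold pair, 70.7 and 60.2 in the second and 54.2 and 40.5 in the knockout. Fitm2, which helps droplets bud from the endoplasmic reticulum, had a peak at its start in the same 8 libraries. Its folds were 4.45 and 6.16 before cold, 10.3 and 9.83 in the first cold pair, 36.7 and 34.5 in the second cold pair and 42.9 and 41.4 in the knockout.

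Prkar2b, a regulatory subunit of protein kinase A, had a site inside the gene. Its folds were 4.29 and 3.71 before cold, 7.97 and 8.63 in the first cold pair and 5.71 in 4 h replicate 2 alone. They were 40.4 and 35.2 in the second cold pair and 20.5 and 20.1 in the knockout. Both knockout values lay below both wild type ones of the second pair. No share of all regions was computed for folds. By rank as a share of list length, 47.0% of the 7131 shared regions lay lower in both knockout libraries. Ranked among the shared regions only, 19.5% did. G0s2, an inhibitor of the Pnpla2 lipase, joined in the first cold pair (9.66 and 6.68) with a peak at -1610 and -1681 bp from its start, and room temperature replicate 2 also had it (6.25). Fasn, the fatty acid synthase gene, had a peak in that pair (7.73 and 6.68), which lay beyond the far end of the gene. The summits, 120800644 and 120800655, lay outside the 5 kb window. Fasn is counted because the edge of the peak reached the window. Among genes bound only in the long lists, Acsl1 (15.7 and 13.9 in wild type), Lpin1 (11.4 and 14.1), Agpat2 (8.16 and 9.09), Cav1 (7.05 and 12.0) and Gpd1 (5.57 and 7.20) ranked best. Single short lists also held a peak for Acsl1 (3.71 in room temperature replicate 2, at -147 bp) and Lpin1 (4.83 in first pair replicate 1).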

How the data were processed

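HSF1 ChIP-seq was analysed from 10 deposited peak lists; input libraries were not analysed here. Per the labels' protocols, fixation used DSG (2 mM, 25 min) and then formaldehyde (0.8%, 12 min). The submitters' processing notes name MACS2 2.2.7.1, BWA 0.7.17, deepTools 3.4.3, Trim Galore 0.6.0, SAMtools and the build GRCm38.p6. Which input served which library is not given in the sources used here. Each list was called by the authors on 1 library and gives, per peak, a deposited fold ratio, the −log10 of the p-value and q-value, and the summit.

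Peaks on chromosomes 1 to 19, X and Y were kept (47 on other contigs were left out). Regions were built by joining peaks that shared 1 bp or more. Gain or loss needed a peak in both libraries of one group and in neither of the other. Ranks used −log10 p, with ties sharing the best rank. In a region, the strongest peak of a library stood for it. Genes, starts and promoter sequences came from RefSeq tables of GRCm38, which gave a start for 9 of 10 members. No genome was used, so searches of 100 and 250 bp around summits were not run. Named were all members, other lipid genes bound at room temperature, in the first cold pair or after 4 h, then the 5 best ranked, nearer neighbours, and the 3 genes closest to the member bound in most libraries by Euclidean distance of relative rank. The members and lists were chosen with earlier results of these data known. Calculations (Python 3.11.15) were tested on simulated data.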

Additional observations from a re-analysis of the deposited data

How the results depend on the processing

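The 14 counts were recomputed under 111 alternatives, and 78 values stayed within 1.5 times the reported count. Members bound at room temperature, in the second cold pair and in the knockout did so under every alternative run. With 20 kb each side, 5 members were bound in the first cold pair and 2 after 4 h. Regions gained by 40 min ranged from 0 to 1 and regions lost from 0 to 1 when a library was left out, and 1 was lost with the 919 strongest peaks. Regions lost after 4 h ranged from 3 to 6 when a library was left out, and were 0 with the 123 strongest peaks, a count fixed by the cut, since the 3 lost sites rank beyond 123 at room temperature. Regions gained in the knockout were 0 with the gene span alone, 0 with −log10 q of at least 5, 0 with an overlap of 0.5 of the shorter peak and 17 with the first wild type pair as control, and 1 to 4 when a library was left out. Regions lost in the knockout were 2 with 20 kb each side, 0 with −log10 q of at least 5, 0 with the 5000 strongest peaks and 0 with the first pair, and 2 to 6 when a library was left out. When a library was left out, 3 to 6 regions ranked higher in the knockout and 6 to 9 lower. Ranking among shared regions only gave 7 and 1. That alternative, the 2-unit motif (2 promoter windows with a match against 0) and the lists of 919 peaks at every site were added after the data were seen. No paired analysis was possible because these results come from no test. Peak lists without read counts limit what can be said: a site not called may be weak rather than unbound, and the cause of the difference in list length was not tested.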

Other observations

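The strongest HSF1 peak near Lpl lay outside the window used for the gene. Its region, chr8:68865667-68866992, had its summit 14182 bp beyond one end of Lpl in first pair replicate 1, and Lpl was the nearest protein-coding gene. It was called in 9 of 10 libraries, all except room temperature replicate 1. The fold was 8.24 in room temperature replicate 2, 22.0 and 16.1 in the first cold pair, 6.66 and 8.93 after 4 h, 82.4 and 94.3 in the second cold pair, and 37.4 and 48.6 in the knockout. The ranks were 419, 200 and 274, 75 and 139, 199 and 165, and 417 and 260 in the same order. Both knockout libraries thus lay below both wild type libraries of the second cold pair in fold and in rank. By rank as a share of list length, 47.0% of the 7131 shared regions also lay lower in both knockout libraries. Ranked among the shared regions only, 19.5% did. No such share was computed for folds or for places in the whole list. Of the 3 Lpl sites within the window called in these 4 libraries, the one at 68901355 was lower in the knockout in fold and rank. The one at 68908883 was lower in fold and in rank as a share of list length, while its ranks by place in the list overlapped. The one at 68880295 overlapped in fold and rank. The site outside the window was noticed after its values were seen, and the difference was not tested.

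A weaker peak 7952 bp before Pnpla2 in first pair replicate 1 (folds of 7.25 and 7.51 in that pair, 6.20 and 4.30 at room temperature) lay 329 bp from an end of Pidd1.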
